A study of Homo sapiens with 3 samples.

Results

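Cell junction genes and genes that mark the epithelial or mesenchymal state of a cell were followed across 3 Affymetrix arrays of the established cell line HEK293T, which comes from human embryonic kidney. The members are 43 genes listed by their role, and each was read from probe sets whose only gene symbol in the platform annotation is that gene. A gene with several such probe sets was given the one with the highest mean over the arrays. This rule gave values for 40 of the 43 genes, out of 22395 genes in all. CTNND1, a catenin that binds the cadherin tail near the membrane, and OCLN, a tight junction membrane protein, have here only probe sets that name several genes. No probe set used here names F11R, a junctional adhesion molecule. The rule uses no difference between arrays, and the mean level decides only which of the 4 probe sets of CLDN12 is used, since every other measured member has 1. The list of members itself was chosen with earlier results of these data known.

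The cells had been infected with lentivirus carrying the empty pCDF1 vector, pCDF1 with wild-type TRAF7 or pCDF1 with the TRAF7 G536S mutant. Puromycin kept the stable cells, which grew asynchronously in DMEM with fetal bovine serum, so the vector backbone, the infection and the selection are common to all 3 groups. TRAF7 is a RING-finger E3 ubiquitin ligase with WD40 repeats. Each group is 1 array, and the labels do not say whether the selected cells were a pool or a clone. With 1 array a group there is no replicate error, so no p-value or SD is given, and every difference mixes that of the constructs with those of the cultures, extractions and arrays. In bulk RNA, fewer cells with a transcript and less transcript per cell cannot be told apart.

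Epithelial cells are joined by several kinds of junction. Adherens junctions link cadherins to actin through catenins, desmosomes link desmosomal cadherins to intermediate filaments through plakoglobin, plakophilins and desmoplakin, tight junctions seal the space between cells through claudins and their scaffolds, and gap junctions pass small molecules through connexin channels. In the shift from an epithelial to a mesenchymal state, repressors of the SNAI and ZEB families lower CDH1 and other epithelial genes, while CDH2 and VIM rise.

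The deposited values are log2 intensities, so a difference of 1 is 2-fold and 0.585 is 1.5-fold. The TRAF7 probe set, the check of the labels, read 5.66 under the empty vector, 8.11 under wild-type TRAF7 and 7.35 under G536S. The 75th percentile of all probe sets was 1.73 in the empty vector array and 1.85 and 1.86 in the others, a shift of the upper values that goes with every comparison against the empty vector. As a yardstick of level, the median of all gene means was 1.21 and the 75th percentile of gene means 2.87. Of the 40 measured members, the mean of 26 reached that median and the mean of 17 reached that 75th percentile. Among markers of other cells, 0 of 5 endothelial, 1 of 6 fibroblast and 2 of 10 leukocyte markers reached the median. COL1A1, a collagen gene, had the highest mean of the fibroblast markers (2.55) and CD68 of the leukocyte markers (2.42). The median leukocyte marker read 0.95, 0.95 and 0.83 in the empty vector, wild-type and G536S arrays, and the fibroblast and endothelial medians lay between 0.87 and 0.96. Of 6 genes taken as the background of this line, 5 reached the median, NEFL and INA with means of 5.97 and 6.17. SALL2 had a mean of 3.61, PAX2 1.64 and LHX1 1.37. NEFM, at 1.02, lay below the median.

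Where the members' means over the 3 arrays lay against this yardstick varied by role. Below the median of gene means were 5 of 7 epithelial state genes, 2 of 3 simple keratins and 5 of 9 measured tight junction genes. At or above the 75th percentile were 6 of 8 desmosomal genes, both polarity genes and both connexins. All 4 mesenchymal state members reached the median, while of 13 measured further mesenchymal state genes 7 lay below it, TWIST1, PRRX1, S100A4, TGFBI, SPARC, LGALS1 and AXL. Probe sets differ in how strongly they respond, so these counts do not rank genes by expression and no cell state is read from them. ACTB and ACTG1, both cytoskeletal actin genes, had means of 2.36 and 9.62. The plot of levels by role is therefore to be read along each gene's row.

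**Figure D1:**
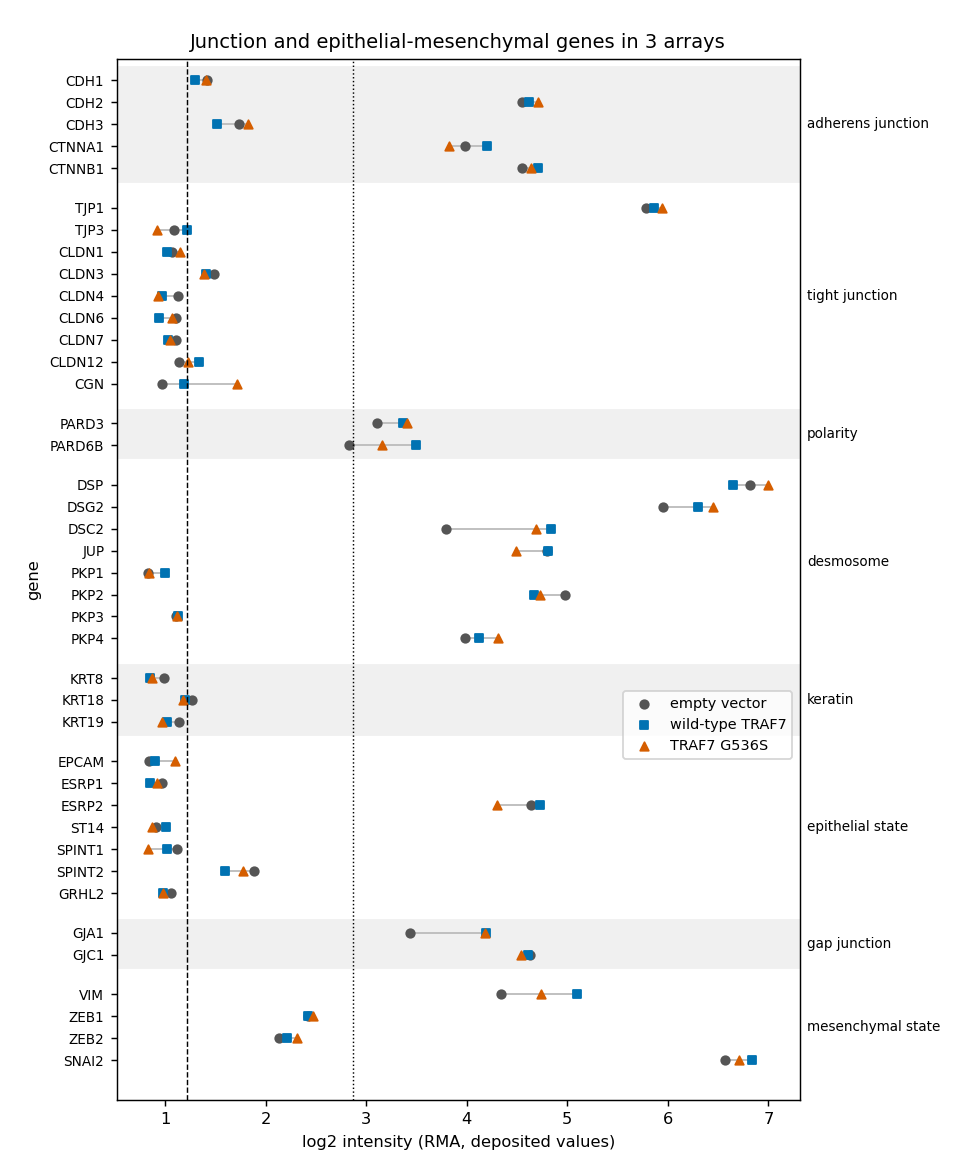
Log2 RMA intensity (x axis) of the 40 measured members (y axis, grouped by role) in the empty vector, wild-type TRAF7 and TRAF7 G536S arrays, 1 point an array; the dashed and dotted lines are the median (1.21) and 75th percentile (2.87) of all gene means. DSC2, GJA1, VIM and CGN have the widest spread over the 3 arrays, from 0.75 to 1.05.

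The first comparison, wild-type TRAF7 against the empty vector, asks which of these genes differ when TRAF7 is added. Of the 40 members, 4 were 1.5-fold or more higher and 0 were 1.5-fold or more lower. They were DSC2, a desmosomal cadherin, GJA1, the connexin 43 gap junction protein, VIM, the intermediate filament protein vimentin, and PARD6B, a subunit of the PAR polarity complex. Over all measured genes, 2.73% were 1.5-fold higher and 0.911% lower. Among genes that reach the median of gene means, where nearly all such differences lie, the shares were 5.42% and 1.79%. As the list was chosen with earlier results known, counts set beside such shares, here and in the other comparisons, are no test of the members. DSC2 alone was 2-fold higher, against 0.397% of all genes. The median member differed by 0.04 and the median of all genes by -0.00075, and 23 of 40 members (57.5%) were above 0, against 49.8% of all genes. Quantile normalization and cyclic loess each left 17 of 40 above 0. No shift of the members as a list is read from this, because the list's median changes sign with the scaling.

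G536S was compared with the empty vector in the same way, and shares that array with the first comparison. Here 3 of 40 members were 1.5-fold or more higher, namely DSC2, GJA1 and CGN, the tight junction plaque protein cingulin, and 0 were 1.5-fold lower. The shares of all measured genes were 3.05% higher and 1.07% lower, and 6.07% and 2.08% among genes that reach the median of gene means. The median member differed by 0.0048 and 21 of 40 (52.5%) were above 0, against 48.7% of all genes. After quantile normalization 17 of 40 were above 0, and after cyclic loess 19.

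G536S was then set against wild type, a comparison without the empty vector array. The TRAF7 reading itself differed here, by -0.76 (1.69-fold lower with G536S). Differences that go with the substitution and with the level of TRAF7 therefore cannot be told apart. In this comparison 0 of 40 members were 1.5-fold apart in either direction, where 1.11% of all genes were higher and 0.929% lower with G536S (2.17% and 1.81% of genes that reach the median). A count of 0 in 40 is near these shares. Differences of the members ran from -0.43 for ESRP2 to 0.53 for CGN, with a median of -0.0078. The plot of all genes marks where the members lie in each comparison.

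**Figure D2:**
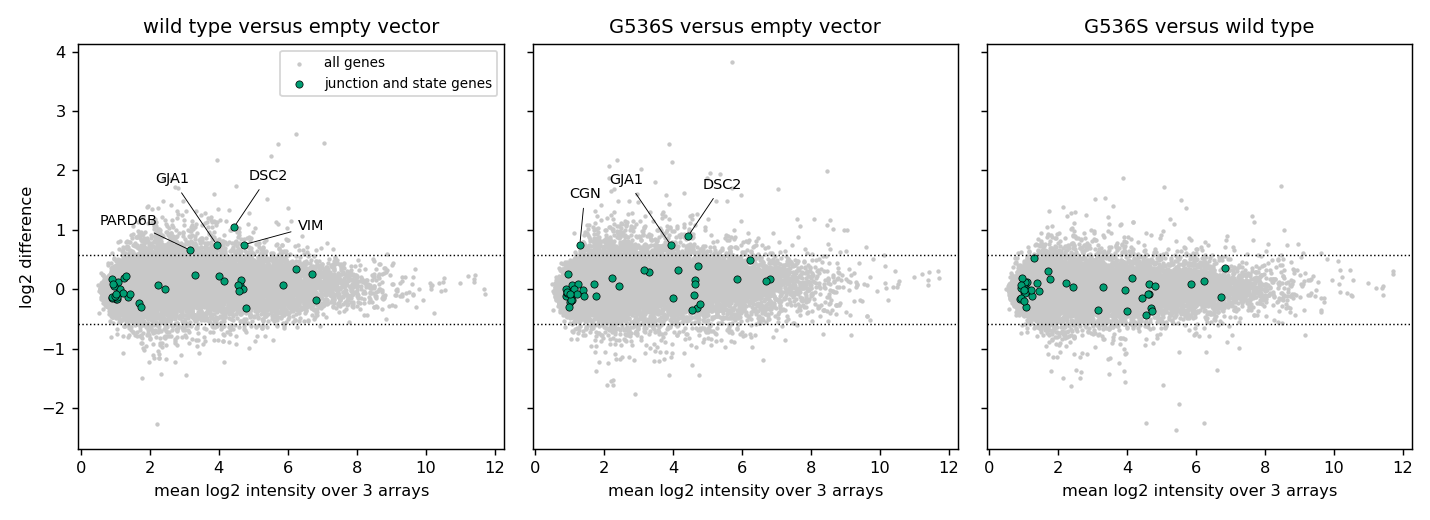
Log2 difference (y axis) against mean log2 intensity over 3 arrays (x axis) for 22395 genes in grey and the 40 measured members in green, 1 panel a comparison; dotted lines mark 1.5-fold. The members lie within the cloud of all genes, and those labelled, 4 in the first panel and 3 in the second, are above the upper line.

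Desmosomes held the widest difference. DSC2, which encodes desmocollin 2, read 3.79 under the empty vector, 4.84 under wild-type TRAF7 and 4.69 under G536S. Both TRAF7 arrays were high and close to each other, and the empty vector array was low. Wild type was 1.05 over the empty vector (2.07-fold), G536S was 0.90 over it (1.87-fold), and G536S minus wild type was -0.15. DSC2 ranked 73 from the highest of 22395 genes in the first comparison and 166 in the second. DSG2, its partner desmoglein 2, had the same order of the empty vector array below the others, at 5.96, 6.30 and 6.45. These were differences of 0.34 and 0.49, under 1.5-fold.

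Desmosomal cadherin genes lie next to one another on chromosome 18 in the order DSC3, DSC2, DSC1, DSG1, DSG4, DSG3 and DSG2. Of these 7 genes the 3 with levels above the median of gene means, DSC3, DSC2 and DSG2, were each higher in both TRAF7 arrays than in the empty vector array. DSC3, desmocollin 3, read 4.42, 4.79 and 4.72 in the empty vector, wild-type and G536S arrays, which are differences of 0.37 and 0.30. DSC2, DSC3 and DSG2 kept this direction under quantile normalization, median centring and cyclic loess. The 4 genes between them, whose products are cadherins of stratified epithelia, read at most 1.05 in any array, near the bulk of probe sets. Within the cluster, the 3 genes above the median of gene means are those at its 2 ends. Of all genes that reach that median, 62.6% were above 0 with wild type and 63.9% with G536S. DSG3, below it, also read over the empty vector, by 0.05 and 0.04.

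**Figure D3:**
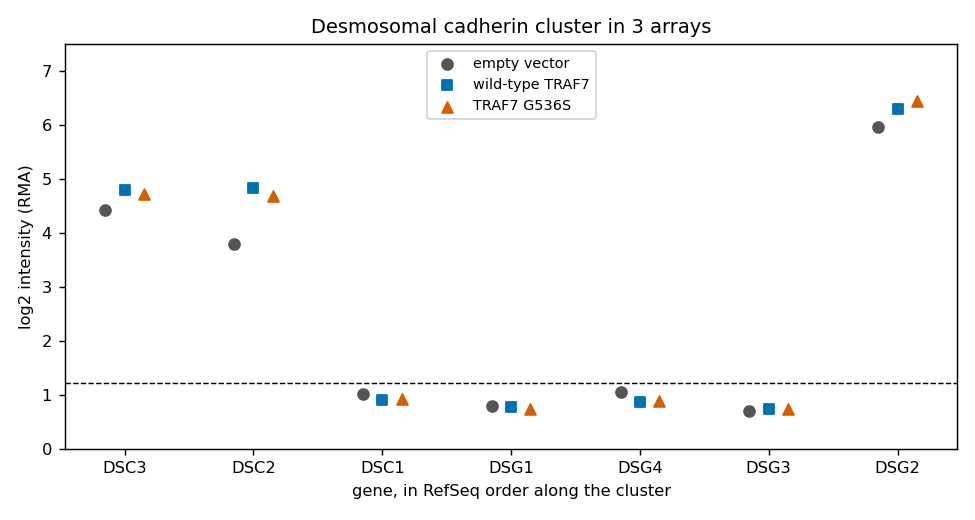
Log2 RMA intensity (y axis) of the 7 desmosomal cadherin genes in their RefSeq order (x axis), 1 point an array; the dashed line is the median of all gene means (1.21). DSC3, DSC2 and DSG2 stand above the line with the empty vector lowest, and the other 4 genes lie below it in every array.

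The start regions of DSC2 and DSG2 are shown, picked with their values known. Both hold an E-box of the kind bound by ZEB and SNAI repressors, which are themselves on the list of members. Each region is the 250 bases before a start in RefSeq, build GRCh38.p14, read 5′ to 3′ on the gene's strand. DSC2 has 2 windows, of which the one at its outermost start is shown. DSC2 is at chr18:31102422-31102671 on the minus strand and DSG2 at chr18:31497927-31498176 on the plus strand. Capitals mark CAGGTG or its reverse complement CACCTG.
DSC2: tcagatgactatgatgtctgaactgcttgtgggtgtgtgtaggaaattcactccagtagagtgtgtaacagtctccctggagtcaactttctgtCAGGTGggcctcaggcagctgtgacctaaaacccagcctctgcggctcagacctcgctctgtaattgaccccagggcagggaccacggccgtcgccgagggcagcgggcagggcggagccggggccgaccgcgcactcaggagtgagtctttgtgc
DSG2: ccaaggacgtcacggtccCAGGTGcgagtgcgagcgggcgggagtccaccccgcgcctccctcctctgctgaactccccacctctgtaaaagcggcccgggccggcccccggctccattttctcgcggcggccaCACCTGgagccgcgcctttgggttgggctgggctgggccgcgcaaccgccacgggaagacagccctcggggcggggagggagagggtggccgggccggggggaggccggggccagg
The DSC2 match starts 156 bases before the start, and the DSG2 matches 232 and 116 bases before it. Promoter windows were found for 25 of the 43 listed genes, 45 windows in all because some genes have several starts. The E-box was in 12 of these 45 (26.7%) and in 17.5% of all 35116 windows. The member genes with a match were CLDN7, DSC2, DSG2, DSP, JUP, OCLN, SPINT1, TJP1, TJP3 and ZEB1. DSP and JUP, the other desmosomal genes with a match, did not share the order of DSC2 and DSG2. Against the empty vector, DSP was -0.17 with wild type and 0.18 with G536S, and JUP 0.0091 and -0.31. A match is a run of letters and not a bound site, and its part in the differences was not tested.

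The other desmosomal genes stayed under 1.5-fold in all comparisons. DSP, desmoplakin, which ties the plaque to intermediate filaments, read 6.82, 6.65 and 7.00 in the empty vector, wild-type and G536S arrays, with the empty vector in the middle. JUP, plakoglobin, shared by desmosomes and adherens junctions, read 4.80, 4.81 and 4.49, so that G536S was lowest, by 0.31 against the empty vector and 0.32 against wild type. PKP2, a plakophilin of simple epithelia and heart, went opposite to DSC2, at 4.98 with the empty vector and 4.67 and 4.73 with the constructs. Its difference of -0.31 was the lowest of the members with wild type, and with G536S it was -0.25. PKP4, an armadillo protein of junctions, was 3.99, 4.13 and 4.31. PKP1 and PKP3, plakophilins of stratified and simple epithelia, lay at or under 1.13 in all arrays.

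Gap junction genes were 2 members with unlike patterns. GJA1 read 3.43 under the empty vector, 4.19 under wild-type TRAF7 and 4.18 under G536S. Both constructs were higher than the empty vector, by 0.75 (1.69-fold) and 0.75 (1.68-fold), and differed from each other by -0.0088. GJC1, connexin 45, read 4.63, 4.61 and 4.54, with no array standing apart. The window before the GJA1 start, chr6:121435396-121435645 on the plus strand of GRCh38.p14, is shown because it holds an AP-1 site, TGAGTCA in capitals, and JUN, an AP-1 subunit, differed widely between these arrays. The AP-1 motif was chosen after the values were seen.
GJA1: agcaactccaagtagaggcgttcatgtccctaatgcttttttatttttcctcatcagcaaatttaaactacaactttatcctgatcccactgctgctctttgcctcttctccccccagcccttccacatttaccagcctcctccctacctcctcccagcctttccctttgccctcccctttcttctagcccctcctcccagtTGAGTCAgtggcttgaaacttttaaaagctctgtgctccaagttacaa
The match starts 48 bases before the start. TGAGTCA or its reverse complement TGACTCA was in 4.2% of all 35116 windows. Among the members it was in 2 of 45 windows (4.44%), those of GJA1 and CLDN4, which is near the share of all windows. JUN read 4.66, 6.91 and 4.98 in the empty vector, wild-type and G536S arrays. Its part in the GJA1 difference was not tested. CLDN4, the other member with the motif, read 1.13, 0.97 and 0.93.

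Polarity genes gave 1 difference past 1.5-fold. PARD6B, an adaptor that links CDC42 to atypical protein kinase C, read 2.83, 3.49 and 3.15 in the empty vector, wild-type and G536S arrays. The wild-type array was highest, by 0.66 (1.58-fold) over the empty vector, and G536S lay between them, 0.32 over the empty vector. The wild-type difference was under 1.5-fold after quantile normalization (0.51) and cyclic loess (0.54). PARD3, the scaffold of the same complex, read 3.11, 3.36 and 3.41, differences of 0.25 and 0.30. Of 14 further polarity genes measured, none was 1.5-fold apart in any comparison. Against the empty vector 8 were below 0 with wild type and 7 with G536S, beside 11231 and 11471 of all 22395 genes. Of the 11198 genes that reach the median of gene means, as 12 of these 14 do, 4184 and 4044 were below 0. The medians of the 14 were -0.02 and -0.01, and after median centring 0.0011 and 0.021. LLGL1, a basolateral polarity protein, had the lowest difference of them with either construct, -0.46 and -0.37.

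Among mesenchymal state genes, VIM read 4.34 under the empty vector, 5.10 under wild-type TRAF7 and 4.74 under G536S. Wild type was highest, by 0.75 (1.68-fold), and G536S again lay between, at 0.39 (1.31-fold) over the empty vector and 0.36 under wild type. SNAI2, the repressor SLUG, was 6.57, 6.84 and 6.71, the same order with differences of 0.27 and 0.14. After quantile normalization and cyclic loess its difference with G536S was 0.0 and 0.0056, and with wild type 0.17 under either. The intermediate level of SNAI2 with G536S thus depends on the scaling. ZEB1 and ZEB2, zinc finger repressors of epithelial genes, showed little change in level, at 2.42, 2.42 and 2.47 for ZEB1 and 2.13, 2.21 and 2.32 for ZEB2. The ZEB1 differences, and that of ZEB2 with wild type, changed sign under quantile normalization and cyclic loess. PARD6B and VIM thus had intermediate levels with G536S, whereas DSC2 and GJA1 did not differ between the constructs by more than 0.15. With 1 array each, whether these patterns differ was not tested. TRAF7 itself also read lower with G536S than with wild type, and the part of its level in these patterns was not tested. Of the 13 further mesenchymal state genes measured, 11 were below 0 with wild type and 8 with G536S against the empty vector. Their medians were -0.14 and -0.14, with none 1.5-fold apart. Of all 22395 genes, 11231 and 11471 were below 0, and of the 11198 that reach the median of gene means, 4184 and 4044. As 7 of the 13 lie below that median, no shift of mesenchymal state genes is read from these counts. The medians of the 13 were below 0 under the 3 rescalings too. SNAI1, the repressor SNAIL and a relative of SNAI2, read 2.12, 1.84 and 1.60, highest with the empty vector. Its difference with G536S, -0.52, was past 1.5-fold after quantile normalization (-0.65) and cyclic loess (-0.62).

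**Figure D4:**
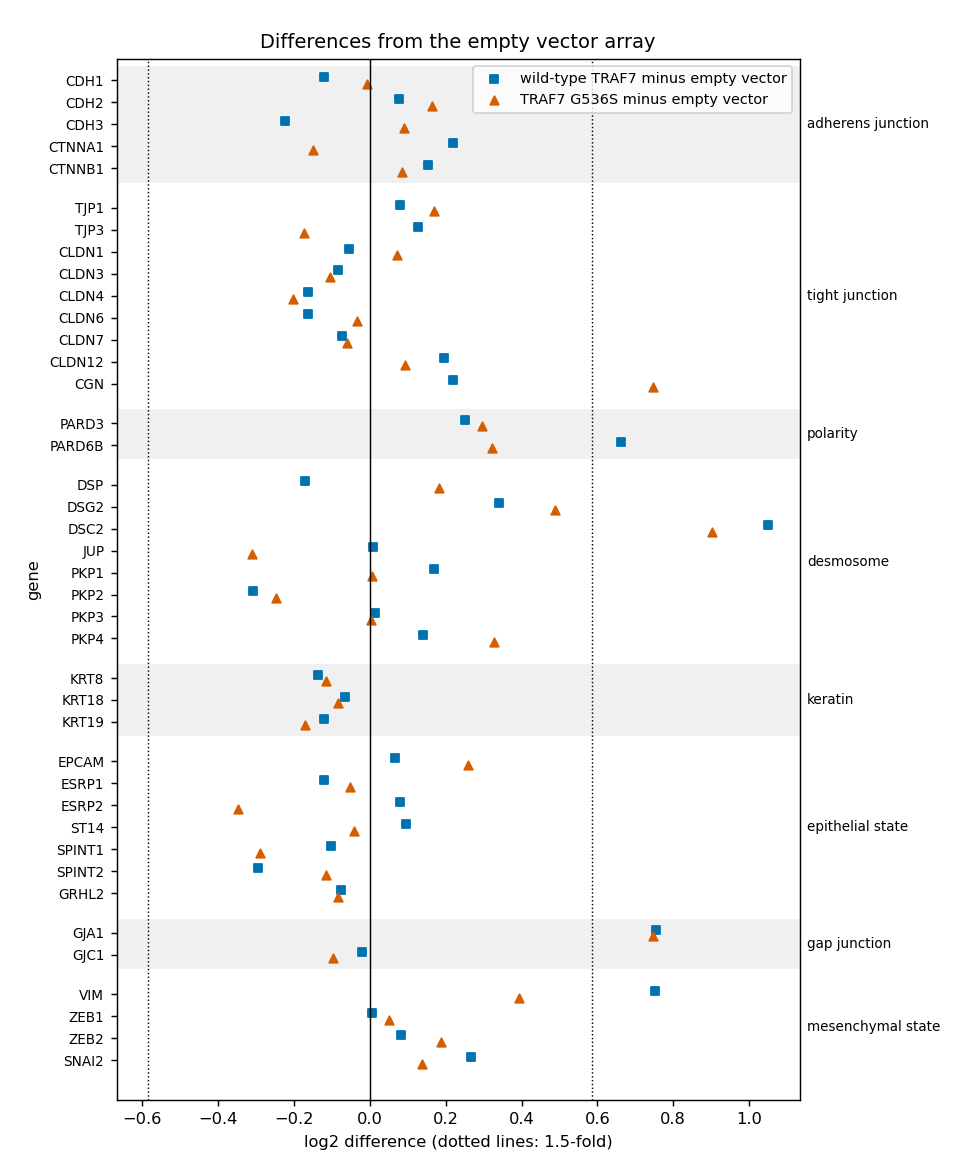
Log2 difference from the empty vector array (x axis) of each measured member (y axis, grouped by role) for wild-type TRAF7 (squares) and TRAF7 G536S (triangles); both use the same empty vector array, and dotted lines mark 1.5-fold. DSC2 and GJA1 are past the upper line with both constructs, VIM and PARD6B with wild type, and CGN with G536S.

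Tight junction genes gave 1 difference past 1.5-fold. CGN read 0.97 under the empty vector, 1.19 under wild-type TRAF7 and 1.72 under G536S. The G536S array was highest, with log2 differences of 0.75 from the empty vector and 0.53 from wild type. CGN lies above the median of gene means through its G536S value. The empty vector value is near the medians of endothelial and fibroblast markers in that array (0.91 and 0.96). These files give no detection call, so whether it is above background is unknown and no fold is given. TJP1, the scaffold ZO-1, read 5.78, 5.86 and 5.95 and was the one tight junction member above the 75th percentile of gene means. TJP3, the scaffold ZO-3, was 1.09, 1.22 and 0.92.

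Claudins, the strand proteins of the tight junction, were near the bulk of probe sets in all arrays. CLDN1, CLDN3, CLDN4, CLDN6 and CLDN7 read between 0.93 and 1.49, and their differences from the empty vector ran from -0.20 to 0.07. CLDN12 was 1.14, 1.33 and 1.23 on the probe set used. It is the one member with several probe sets, and its 4 probe sets disagreed in direction: wild type minus empty vector was 0.16, 0.19, -0.08 and -0.10. Every other measured member rests on 1 probe set.

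Adherens junction genes had no member 1.5-fold apart in any comparison. CDH2, N-cadherin, read 4.54, 4.62 and 4.71 in the empty vector, wild-type and G536S arrays. CDH1, E-cadherin, was near the bulk of probe sets at 1.42, 1.30 and 1.41, and CDH3, P-cadherin, read 1.74, 1.51 and 1.83. CTNNB1, beta-catenin, was 4.55, 4.70 and 4.64. CTNNA1, alpha-catenin, which joins the complex to actin, read 3.98, 4.20 and 3.83, highest with wild type and lowest with G536S, a difference of -0.37 between the constructs.

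Epithelial state genes did not move past 1.5-fold either. ESRP2, an epithelial splicing regulator, was the one such member above the 75th percentile of gene means, at 4.64, 4.72 and 4.30 in the empty vector, wild-type and G536S arrays. G536S was lowest, by 0.35 against the empty vector and 0.43 against wild type, the lowest difference of any member in that comparison. Its relative ESRP1 read 0.97, 0.85 and 0.91. SPINT2, an inhibitor of surface serine proteases, read 1.89, 1.59 and 1.77, and SPINT1 1.12, 1.02 and 0.83. The protease they restrain, matriptase (ST14), read 0.91, 1.01 and 0.87. EPCAM, an epithelial adhesion molecule, was 0.84, 0.90 and 1.09, and GRHL2, a transcription factor of epithelial junction genes, 1.06, 0.98 and 0.98.

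Simple epithelial keratins had no member 1.5-fold apart. KRT8 was 0.98, 0.85 and 0.87, its partner KRT18 was 1.26, 1.20 and 1.18, and KRT19 was 1.14, 1.02 and 0.97. All 3 were slightly lower in both TRAF7 arrays, by at most 0.17. KRT8 and KRT18 have many processed pseudogenes that can share probe sequence, so their levels on these probe sets are uncertain. VIM, the other intermediate filament gene among the members, thus had the only difference past 1.5-fold of the filament genes on that list. Of the filament genes taken as line background, NEFL was past 1.5-fold with G536S against wild type, at -0.64. INA and NEFM were 0.44 and 0.11 in that comparison.

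A longer list of 104 other genes of the same structures, of which 93 were measured and 36 reached the median of gene means, was examined in the same way. With wild type against the empty vector 1 was 1.5-fold higher and 0 lower, and with G536S against the empty vector again 1 and 0. Between G536S and wild type 1 was higher and 1 lower. These counts depend on the scaling. With G536S against the empty vector, the deposited values put 1 tight junction gene past 1.5-fold. Quantile normalization and cyclic loess each put 0 tight junction genes past it, but 1 gap junction and 1 mesenchymal state gene. The background shares beside these counts of 1 in 93 are 2.73%, 3.05% and, for the last pair, 1.11% and 0.929%. The medians of the 93 were -0.03, -0.06 and -0.0078, beside medians of all genes of -0.00075, -0.0047 and -0.0033. Most of these genes sit near the bulk of probe sets, where 1.5-fold differences are rare.

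GRHL1, a relative of GRHL2 that acts in the epidermis, was the gene higher with wild type. It read 1.03, 1.76 and 1.23 in the empty vector, wild-type and G536S arrays. This is a difference of 0.74 from an empty vector value that is also near those marker medians. GRHL1 lies above the median of gene means through its wild-type value, the one in which it is high. MARVELD2, tricellulin, found where 3 cells meet, was the one higher with G536S. It read 2.17, 2.24 and 2.83, which is 0.66 over the empty vector and 0.59 over wild type, and it shares with CGN the order in which G536S was the high array. Quantile normalization put MARVELD2 at 0.51 over the empty vector and 0.58 over wild type, both under 1.5-fold. NECTIN2, an immunoglobulin-like adhesion molecule of adherens junctions, was the gene lower with G536S than with wild type, at 2.87, 3.34 and 2.61 (-0.73).

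Scaling bears most on the genes nearest to 1.5-fold, as the plot of the 5 members under other settings shows. Quantile normalization moved the median of genes above the median level by -0.10 for wild type and by -0.12 for G536S against the empty vector. DSC2 ranged from 0.91 to 1.08 with wild type and from 0.75 to 0.93 with G536S. GJA1 ranged from 0.62 to 0.78 and from 0.59 to 0.78, VIM from 0.63 to 0.78 with wild type, and CGN from 0.73 to 0.78 with G536S. These 4 genes stayed past 1.5-fold in those comparisons under all 3 rescalings (quantile normalization, median centring and cyclic loess), whereas PARD6B did so under median centring alone. Averaging probe sets and the floor could not change these 5 genes, which have 1 probe set each and no value under the floor.

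**Figure D5:**
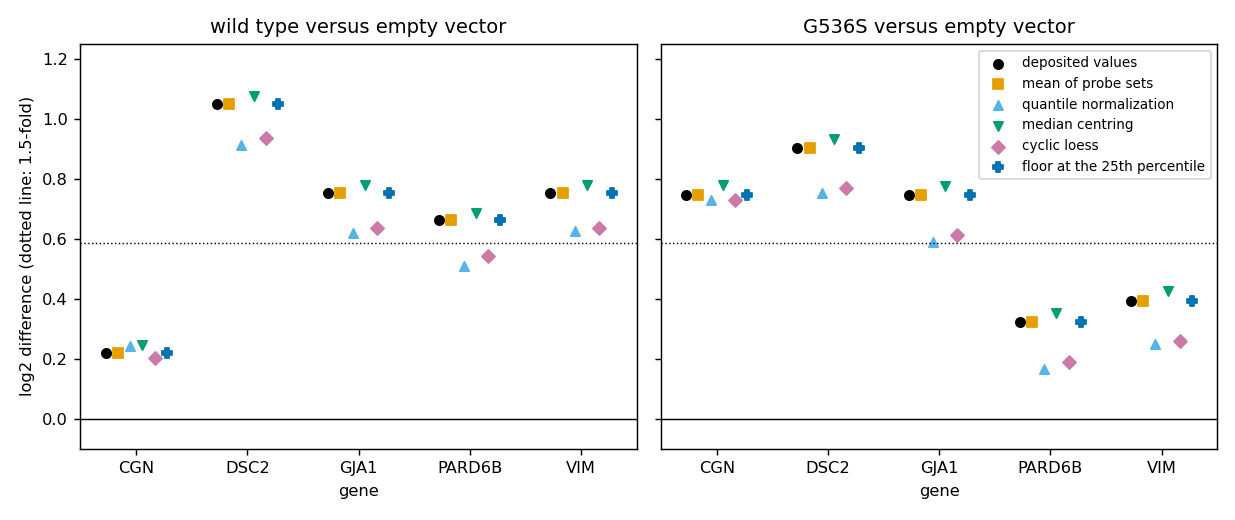
Log2 difference from the empty vector (y axis) of the 5 members that were 1.5-fold apart in some comparison (x axis), under the deposited values and 5 other settings, of which the mean of probe sets and the floor coincide with the deposited values; the left panel is wild type, the right G536S, and the dotted line is 1.5-fold. PARD6B in the left panel lies under the line after quantile normalization (0.51) and cyclic loess (0.54).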

How the data were processed

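The log2 intensities were made by the authors with RMA (background correction, between-array normalization and probe summary), per the submitters' processing notes. Its version, the array's genome build and the log base are not given in the sources read here. Base 2 was inferred, because the highest value, 12.57, as a natural log would exceed a 16-bit scanner (11.09). The table holds 53617 probe sets, of which the platform annotation lists 25713, with 23871 naming 1 gene. Symbols were updated through the Entrez ID to RefSeq (GRCh38.p14) for 22569 of these. The highest-mean probe set of a gene was used, which left 22395 genes, and 11198 of them reach the median of the gene means. Each difference is 1 array's log2 value minus another's, counted at 1.5-fold and 2-fold, with no test. The number of arrays, 1 a group, limits the precision. Members, lists and settings were chosen with earlier results of these data known. All measured members are named. Genes of the longer list are named where 1.5-fold apart and above the median level. SNAI1, LLGL1, DSC3, the 7 mesenchymal state genes below the median, ACTB and ACTG1 were named after their values were seen. The counting was tested on simulated data. The rescalings were run with limma 3.58.1 under R 4.3.3, and all else with Python 3.11.15, numpy 2.4.6 and pandas 2.3.3, with figures from matplotlib 3.10.9. Promoter sequences are RefSeq's.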

Additional observations from a re-analysis of the deposited data

How the results depend on the processing

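The counts of members 1.5-fold higher or lower stayed within 1.5 times of those reported under all 7 alternatives. Not all of these could move the counts. The mean of probe sets and the floor could not change the members past 1.5-fold. All of those members also pass the median filter, CGN through its G536S value. With wild type the count was 3 after quantile normalization and cyclic loess, both without PARD6B, and 4 under the other 5. With G536S against the empty vector it was 2 at the 75th percentile filter, which leaves out CGN, and 3 otherwise, and between the constructs it was 0 throughout. The median of the members was less stable. With wild type, reported as 0.04, it was 0.029 with the mean of probe sets, -0.052 after quantile normalization, 0.066 after median centring, -0.033 after cyclic loess, 0.027 with a floor at the 25th percentile (0.86), and 0.082 and 0.15 for the 26 and 17 members past the median and 75th percentile filters. With G536S against the empty vector, reported as 0.0048, it was -0.013 after quantile normalization, -0.0024 after cyclic loess, 0.0014 with the floor, 0.037 after median centring, and 0.11 and 0.17 past the filters. Between the constructs, reported as -0.0078, it was -0.0035 with the mean of probe sets, -0.0049 after quantile normalization, -0.0014 after median centring, -0.0048 after cyclic loess, and 0.018 and -0.068 past the filters. Fewer members enter at the filters; for the other settings the cause was not tested. No member that was 1.5-fold apart changed sign under these settings, of which the mean of probe sets and the floor could not change those members. No paired analysis was possible because each group has 1 array.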

Other observations

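GJA1 lies on chromosome 6, and some of its neighbours were also higher in the TRAF7 arrays. Of its 5 measured protein-coding neighbours on each side in RefSeq order, 7 of 10 were above 0 with wild type against the empty vector and 9 of 10 with G536S. Over all genes, 49.8% and 48.7% were above 0. Among genes that reach the median of gene means, as 7 of the 10 neighbours do, the shares were 62.6% and 63.9%. Of all 10 neighbours, 3 were past 1.5-fold with wild type and 2 with G536S, beside 2.73% and 3.05% of all genes. The shares 1.5-fold higher were 5.42% and 6.07% among genes that reach the median of gene means, as each of these called neighbours does. Quantile normalization gave 7 of 10 above 0 in both comparisons and 2 past 1.5-fold in each. TBC1D32, the next gene on one side, read 2.43, 3.43 and 3.41 in the empty vector, wild-type and G536S arrays, the same order as GJA1. FAM184A read 1.64, 2.52 and 2.73. SERINC1, the next gene on the other side, read 6.30, 6.93 and 6.41, high in the wild-type array alone. The median of the 10 neighbours was 0.33 with wild type and 0.19 with G536S, or 0.26 and 0.086 after quantile normalization. These genes were chosen by position, after the GJA1 values were known.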
